A study of Mus musculus with 9 samples.

Results

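The genes of the bone morphogenetic protein (BMP) and transforming growth factor beta (TGF-β) pathways were followed in Merkel cells, skin cells that detect light touch, and in basal keratinocytes. The members are 48 genes given by name: ligands, extracellular antagonists, receptors, the SMAD signal carriers and the Id target genes. Each matched 1 row of the deposited table, which holds 49672 rows. Cells came from the epidermis of newborn (P0) mice of the strain Sox2-GFP, which carries a green fluorescent reporter for the transcription factor Sox2, and no treatment is named. Merkel cells were sorted as GFP-positive (3 libraries). Basal keratinocytes were sorted as GFP-negative and positive for the surface proteins SCA1 and CD49F (6 libraries). Both groups carry the reporter allele, and the positive sort rests on GFP alone, so it holds whichever cells of the preparation expressed Sox2-GFP. Each of 3 sample numbers has 1 Merkel, 1 first basal and 1 second basal library. The labels do not say how first and second basal libraries differ, nor whether a number is an animal or a pool, so p-values measure only the spread between these numbers, which may be in part technical.

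Ligands of this family act as dimers that join type I and type II receptor kinases at the cell surface. The type I receptor then phosphorylates receptor SMADs: SMAD1, SMAD5 and SMAD9 for most BMPs, SMAD2 and SMAD3 for TGF-β and activin. These bind SMAD4 and enter the nucleus, where the Id genes are among the best known BMP targets and Smad6 and Smad7 are induced as inhibitors. Secreted antagonists such as noggin bind ligands outside the cell, and in skin the balance of BMPs and noggin is known for its part in hair follicle formation.

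Promoter windows are shown for the 2 members with the largest called increase and the 2 with the largest called decrease in Merkel cells among those with an entry in the RefSeq promoter table (GRCm38.p6, the same build as mm10). Each runs from 250 bases before to 50 bases after an annotated start, 5′ to 3′ on the gene's strand. Capitals mark matches, on either strand, to CAGAC, the short SMAD-binding element, to GGCGCC, which is known to bind BMP SMADs, or to the palindrome GTCTAGAC. Gdf10, a BMP-family ligand, has its window at chr14:33923337-33923636 on the plus strand. Inhba, which encodes the subunit of activin A, has its window at chr13:16011601-16011900 on the plus strand. The windows of the BMP type I receptor Bmpr1b, at chr3:141982215-141982514, and of the TGF-β type II receptor Tgfbr2, at chr9:116175314-116175613, are on the minus strand. For Bmpr1b, which has 3 windows in the table, the one farthest upstream is shown.
Gdf10: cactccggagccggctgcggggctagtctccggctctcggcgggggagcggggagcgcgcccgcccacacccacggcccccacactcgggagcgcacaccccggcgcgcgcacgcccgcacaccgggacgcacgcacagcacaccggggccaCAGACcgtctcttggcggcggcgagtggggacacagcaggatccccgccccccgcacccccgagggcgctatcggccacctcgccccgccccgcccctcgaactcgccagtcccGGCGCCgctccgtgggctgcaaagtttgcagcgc
Inhba: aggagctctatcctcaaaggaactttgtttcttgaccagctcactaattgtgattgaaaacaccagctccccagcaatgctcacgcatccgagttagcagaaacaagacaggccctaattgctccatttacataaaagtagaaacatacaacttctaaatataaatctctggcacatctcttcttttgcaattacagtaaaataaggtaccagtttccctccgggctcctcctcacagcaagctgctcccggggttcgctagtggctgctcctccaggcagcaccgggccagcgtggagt
Bmpr1b: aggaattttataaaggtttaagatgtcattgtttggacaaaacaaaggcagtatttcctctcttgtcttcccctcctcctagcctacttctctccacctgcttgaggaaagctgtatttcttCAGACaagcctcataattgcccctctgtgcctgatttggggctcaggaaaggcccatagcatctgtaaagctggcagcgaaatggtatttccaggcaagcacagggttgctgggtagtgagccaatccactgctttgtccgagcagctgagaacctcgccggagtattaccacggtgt
Tgfbr2: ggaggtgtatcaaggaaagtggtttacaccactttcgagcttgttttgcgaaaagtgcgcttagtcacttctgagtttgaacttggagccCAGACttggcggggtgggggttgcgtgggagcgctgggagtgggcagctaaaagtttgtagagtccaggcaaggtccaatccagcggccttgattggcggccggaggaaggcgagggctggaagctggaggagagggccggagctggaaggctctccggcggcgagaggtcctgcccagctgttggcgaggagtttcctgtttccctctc
The Gdf10 window held 1 CAGAC and 1 GGCGCC, the Bmpr1b and Tgfbr2 windows 1 CAGAC each and the Inhba window none of the 3 motifs. CAGAC was in 45.9% of the 37 windows of the 32 matched members and in 49.6% of all 32851 windows of this length. GGCGCC was in 32.4% of member windows and 11.9% of all windows, and median GC content was 66.3% in member windows and 52.7% in all. GTCTAGAC was in 0.213% of all windows and in 1 of the 37, that of Smad6. The motifs share no whole match with each other, and a match is a description of these letters only.

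The values are TPM, a level corrected for transcript length and scaled to the same total in each library, and they do not give the read depth. Between 13012 and 13649 genes reached 1 TPM in a library. Small and structural RNAs held 50.61% of TPM in Merkel replicate 2 and 36.2% to 42.9% in the other 8 libraries. Merkel replicate 2 was the lowest of the 3 Merkel libraries for 39 of the 40 tested members and for 72.2% of all tested genes. With small RNA and mitochondrial genes removed and the rest rescaled it was lowest for 28 of the 40. The labelled cell types were checked against their markers. All 12 Merkel markers (Atoh1, Krt8, Krt20 and others) were higher in every Merkel library than in every basal library, with a summed level of 1097 to 1443 TPM against 2.72 to 6.05. The basal keratinocyte list (Krt14, Col17a1 and others) had 8 of its 12 genes called lower in the Merkel group. Its summed level was 6274 to 7306 TPM in Merkel libraries against 15650 to 20420 in basal ones. The part of keratinocyte RNA in the Merkel values was not tested.

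Merkel cells were set against basal keratinocytes to ask which pathway members differ between the 2 cell types. Gdf10, Inhba, Bmp3, Fstl1, Gdf11 and Nog were higher in Merkel cells, and Bmpr1b, Tgfbr2, Tgfbr3 and Bmp2 were lower. By role, 4 of 13 tested ligands and 2 of 4 tested antagonists were higher and 1 ligand was lower. Among the 9 ligands and 3 antagonists that did not need their Merkel values to be tested, 1 of each was higher and 1 ligand was lower. Of 10 tested receptors, the co-receptor Tgfbr3 among them, 3 were lower and 0 higher. None of the 7 tested SMADs and none of the 4 Id genes reached the fold limit, although 2 SMADs and 3 Id genes passed limma's adjusted p. A gene was tested at 1 TPM or more in at least 3 of 6 values (3 Merkel values and 3 means of the basal libraries of a number), and called where limma's adjusted p was under 0.05 and the log2 fold change was at least 1 in either direction. The 6 members called higher were 15% of the 40 tested, where 6.79% of all 13822 tested genes were called higher. The 4 called lower were 10%, where 5.27% of all tested genes were. In either direction it was 25% of tested members and 12.1% of all tested genes. Of the 6, Gdf10, Inhba, Gdf11 and Nog reached 1 TPM in Merkel values only, so they could be tested only because they were high there. Among the 35 members that also passed through basal values 2 were higher, Bmp3 and Fstl1. No share of all tested genes is given under this restriction. The upward shares, and those in either direction, therefore do not tell whether members were higher more often than other genes. The median log2 fold change of tested members was 0.10 and that of all tested genes -0.15. With median-ratio scaling the latter became 0.02, so small differences depend on which scaling is used.

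The genes are placed on mm10 as GENCODE gives them. Of the genes higher in Merkel cells, the plus strand carries Gdf10 at chr14:33923587-33937983, Bmp3 at chr5:98854415-98884396, Inhba at chr13:16011851-16031621 and Fstl1 at chr16:37776873-37836514, and the minus strand Gdf11 at chr10:128882295-128891718 and Nog at chr11:89300638-89302332. Of those lower, Bmp2 is on the plus strand at chr2:133552159-133562885, and the minus strand carries Bmpr1b at chr3:141837136-142169425, Tgfbr2 at chr9:116084293-116175360 and Tgfbr3 at chr5:107106570-107289629.

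**Figure D1:**
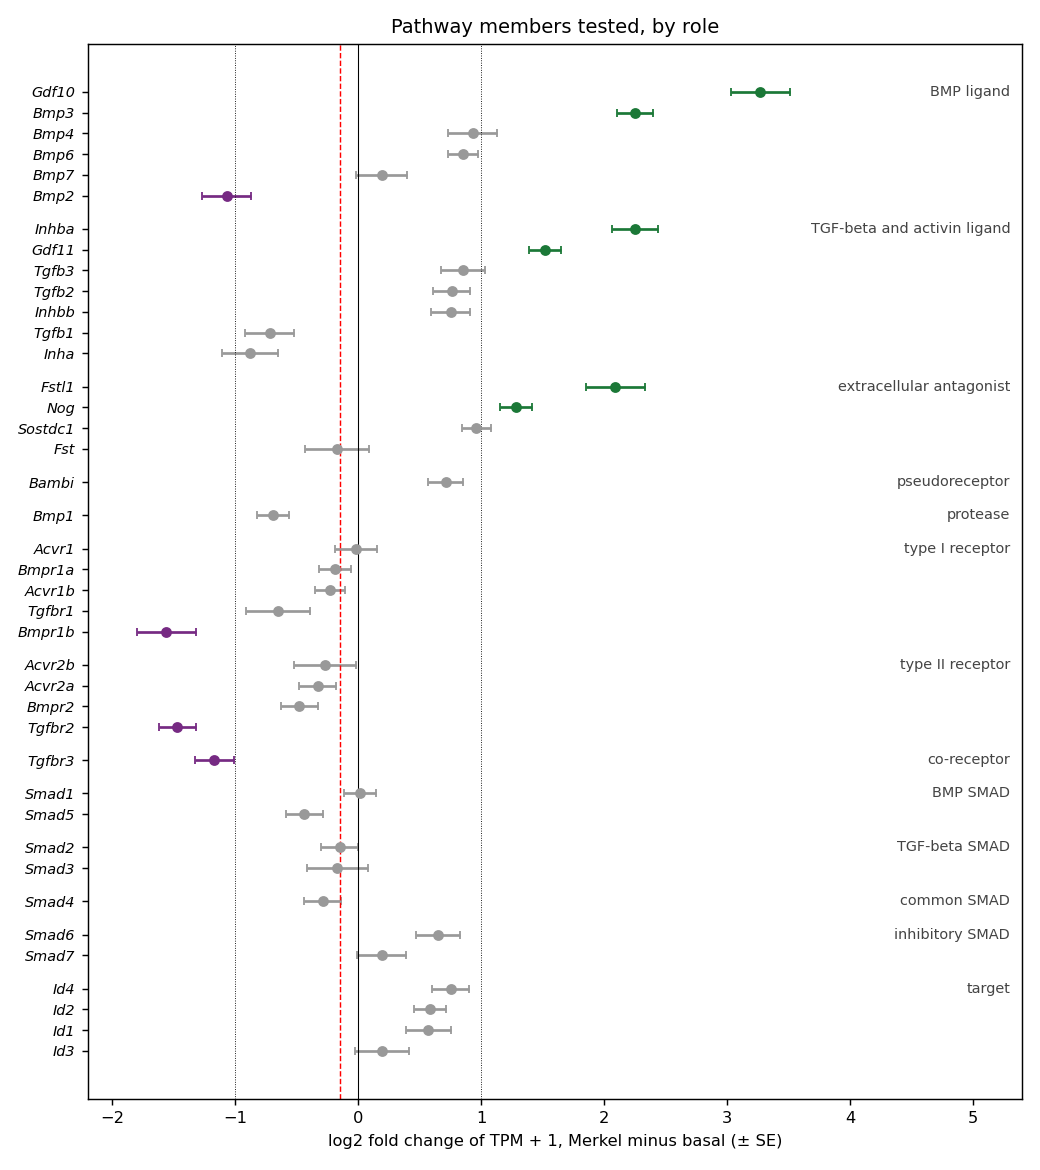
Log2 fold change of TPM + 1 (x axis, Merkel minus basal, points with SE) for the 40 tested members, grouped by role; green points were called higher, purple points lower, and grey points not called. Dotted lines mark the fold limit of 1 and the dashed red line the median of all tested genes, -0.15; every receptor lies below 0, and the largest value is 3.27 for Gdf10. Acvr1, at -0.02, turns positive with the other scalings.

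Gdf10, also known as BMP3B, showed the largest difference of any member. Its level was 12.8, 5.53 and 9.54 TPM in Merkel replicates 1 to 3, and basal libraries held between 0 and 0.04 TPM. The log2 fold change was 3.27 ± 0.24 (SE, n = 3 against 3, limma adjusted p = 1.6e-05). The log2(TPM + 1) scale understates the change of genes near 0. Only its Merkel values brought Gdf10 into the test, so the filter fixed its direction. Bmp3, its closest relative and known in bone as an antagonist of other BMPs, was at 12.6, 10.6 and 11.1 TPM in Merkel libraries. First basal libraries held 1.22, 1.47 and 1.92 TPM of Bmp3 and second basal libraries 1.32, 1.75 and 2.10. Mean Bmp3 was 7.01 times as high in Merkel cells, with groups that did not overlap (log2 fold change 2.25 ± 0.15, adjusted p = 7.1e-06).

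Bmp2, a classical BMP that signals through Bmpr1a and Bmpr1b, went the other way. It was at 11.2, 6.59 and 9.92 TPM in Merkel libraries, 18.0, 14.3 and 21.4 in first and 23.6, 20.0 and 25.4 in second basal libraries. All Merkel values lay below all basal values, a mean of 9.24 ± 2.38 against 20.4 ± 3.16 TPM (SD, n = 3) and a log2 fold change of -1.07 ± 0.20 (adjusted p = 0.0025). The call was lost without Merkel replicate 2 (-0.87) or basal replicate 3 (-0.97), against first basal libraries alone (-0.90), and with median-ratio scaling (-0.90) or quantile normalization (-0.92).
Bmp4, the close paralog of Bmp2, had a mean of 9.13 ± 2.76 TPM in the Merkel group against 4.25 ± 0.426 in the basal group. Its groups did not overlap, and it passed the adjusted p but not the fold limit (0.93 ± 0.20, adjusted p = 0.0059). With median-ratio scaling (1.09), quantile normalization (1.03), removal of small RNA and mitochondrial genes (1.07), a pseudocount of 0.1 (1.06) or without Merkel replicate 2 (1.15) Bmp4 was called higher.

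Bmp7 was the most abundant ligand. Merkel libraries held 51.2, 29.4 and 47.1 TPM of it, first basal libraries 32.5, 22.9 and 30.2 and second basal libraries 52.3, 38.5 and 49.5. The groups overlapped, and the log2 fold change was 0.19 ± 0.21 (adjusted p = 0.52). Bmp6 was low, with 1.08 to 1.31 TPM in Merkel and 0.09 to 0.38 in basal libraries, and did not reach the fold limit (0.85 ± 0.12, adjusted p = 0.0008). Bmp6 passed the limit with a pseudocount of 0.1 (2.09) or without small RNA and mitochondrial genes (1.25). It was tested only through its Merkel values, so the filter fixed its direction. Its gene overlaps Txndc5 on the opposite strand, at 33.2 TPM in Merkel and 39.0 in basal libraries, and the strand setting of the quantification is not given. Bmp5, Bmp8a, Bmp8b and Gdf5 were below 1 TPM in every library and were not tested. Bmp5 was at 0.23, 0.28 and 0.88 TPM in Merkel libraries and at most 0.20 in basal ones. In Merkel cells Bmp3, Gdf10, Bmp2 and Bmp4 had mean levels of 11.4, 9.30, 9.24 and 9.13 TPM, with ranges that overlapped.

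Among TGF-β and activin ligands, Inhba and Gdf11 were higher in Merkel cells. Inhba, the βA subunit shared by activin A and inhibin A, was at 6.74, 3.63 and 5.15 TPM in Merkel libraries, whereas basal values ran from 0.10 to 0.40. The groups lay far apart (log2 fold change 2.25 ± 0.19, adjusted p = 3e-05). Inhba and Gdf11 passed the filter through Merkel values alone, which fixed their direction. Gdf11, an activin-like ligand known for its part in patterning of the vertebral column, was at 2.89, 2.71 and 3.46 TPM in Merkel and 0.23 to 0.64 in basal libraries (1.52 ± 0.13, adjusted p = 4.2e-05). Inhbb, the βB subunit, was at 5.76 ± 1.33 TPM against 3.10 ± 0.273 and fell short of the fold limit (0.75 ± 0.16, adjusted p = 0.0061). Inha, whose product turns activin subunits into inhibin, was at 4.30 ± 1.55 TPM against 8.56 ± 1.10, with every Merkel library below every basal library. Its log2 fold change was -0.88 ± 0.23 (adjusted p = 0.013), and it was called lower without Merkel replicate 1 (-1.03) or Merkel replicate 3 (-1.01), with a pseudocount of 0.1 (-1.03) and against second basal libraries alone (-1.03). Inhba was thus lower than Inha in basal keratinocytes (0.277 ± 0.0643 TPM for Inhba), while in Merkel cells their ranges overlapped.

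The 3 TGF-β isoforms did not move as one. Tgfb1 averaged 8.46 ± 2.23 TPM in the Merkel group and 15.4 ± 3.02 in the basal group (log2 fold change -0.72 ± 0.20, adjusted p = 0.019). Tgfb2 was at 5.55 ± 1.06 against 2.92 ± 0.261 TPM (0.76 ± 0.15, adjusted p = 0.0041) and Tgfb3 at 15.8 ± 4.04 against 8.90 ± 0.625 TPM (0.85 ± 0.18, adjusted p = 0.0052). None reached the fold limit in the comparison with both basal groups. Tgfb3 passed it with median-ratio scaling (1.03), quantile normalization (1.02) or without Merkel replicate 2 (1.05). Tgfb3 overlaps Ttll5 on the opposite strand, at 6.94 TPM in Merkel and 8.22 in basal libraries. Summed over the 3 genes, the level was 21.9 to 36.0 TPM in Merkel and 22.7 to 33.6 in basal libraries.

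**Figure D2:**
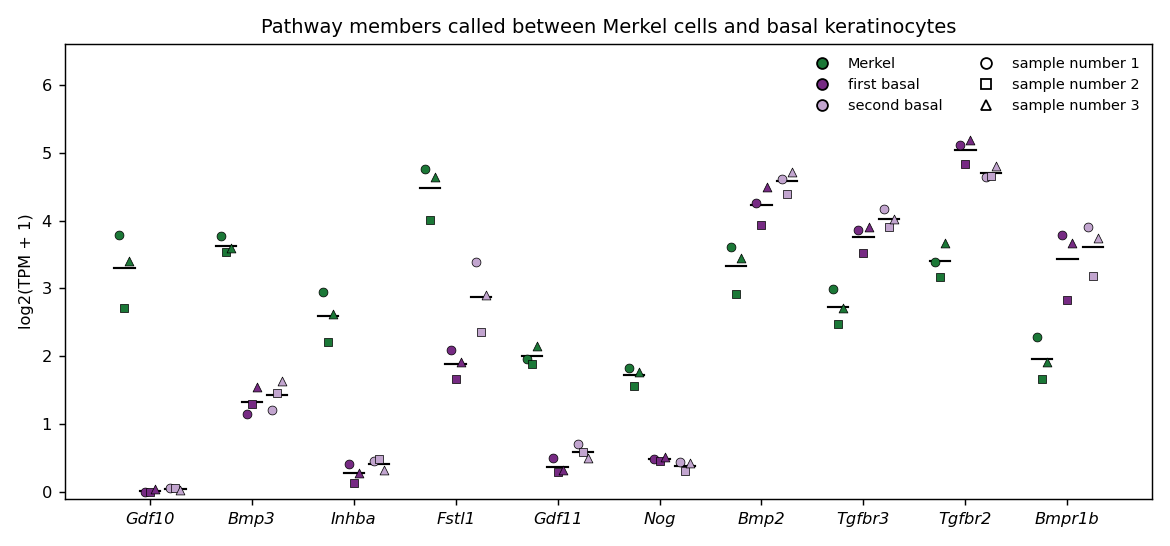
Level of the 10 members called between Merkel cells and basal keratinocytes (y axis, log2(TPM + 1)) in each of the 9 libraries; colours give the group, marker shapes the sample number and bars the group mean. In all 10 the Merkel libraries lie beyond every basal library, and Gdf10 is near 0 in all 6 basal libraries.

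Of the extracellular antagonists, Fstl1 and Nog were higher in Merkel cells. Fstl1, a secreted glycoprotein of the follistatin family, was at 26.1, 15.1 and 24.01 TPM in Merkel libraries. It was at 3.25, 2.18 and 2.77 TPM in first and 9.43, 4.11 and 6.48 in second basal libraries. Merkel values lay above both basal groups, and the mean was 4.62 times that of basal keratinocytes (log2 fold change 2.09 ± 0.24, adjusted p = 0.0002). Nog, which encodes the BMP-binding noggin, was at 2.56, 1.95 and 2.41 TPM in Merkel libraries against 0.24 to 0.43 across the basal ones. The groups again did not overlap (1.28 ± 0.13, adjusted p = 9.3e-05). Nog was tested only through its Merkel values, so the filter fixed its direction.

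Sostdc1 and Fst were the abundant antagonists. Sostdc1, also called ectodin or WISE and an inhibitor of BMP and Wnt signals, was at 88.6, 89.9 and 74.6 TPM in Merkel libraries, 27.3, 34.5 and 26.8 in first and 72.8, 52.8 and 63.0 in second basal libraries. Every Merkel value was above every basal value, and the log2 fold change of 0.96 ± 0.12 (adjusted p = 0.00031) was just under the limit. With median-ratio scaling (1.15), quantile normalization (1.09), without small RNA and mitochondrial genes (1.06) or without Merkel replicate 3 (1.04) Sostdc1 was called higher. Fst, the activin-binding follistatin, was at 76.5, 46.5 and 63.0 TPM in Merkel libraries, 68.2, 37.6 and 63.7 in first and 113, 56.7 and 98.4 in second basal libraries. The Fst ranges overlapped throughout (-0.17 ± 0.26, adjusted p = 0.63). Chrd, Chrdl1 and Grem1 were below 1 TPM everywhere and were not tested. Each was nevertheless higher in every Merkel than in every basal library, Chrd at 0.47 to 0.66 against 0.03 to 0.27 TPM, Chrdl1 at 0.53 to 0.75 against 0.10 to 0.33 and Grem1 at 0.14 to 0.30 against at most 0.05.

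Bambi, a receptor-like protein without a kinase that dampens TGF-β signalling, averaged 3.70 ± 0.503 TPM in the Merkel and 1.86 ± 0.168 in the basal group, with no overlap (0.71 ± 0.14, adjusted p = 0.003). Bmp1, a protease that cleaves procollagen and chordin and is no BMP by structure, was at 22.1 ± 3.16 against 36.4 ± 1.18 TPM (-0.69 ± 0.13, adjusted p = 0.0028). Both stayed under the fold limit.

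Counted without the fold limit, 17 of 40 members (42.5%) passed the adjusted p upward and 9 (22.5%) downward, where 13.2% and 28.5% of all tested genes did. Every Merkel library was above every basal library in 12 members (30%) and below in 6 (15%), where the shares over all tested genes were 11.7% and 26.2%. Members that reached the test only through their Merkel values, 5 in all, had to be higher, which limits what these upward shares say.

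All 10 receptors had a log2 fold change below 0 in the values as deposited, but Acvr1 turned positive with median-ratio scaling (0.13), quantile normalization (0.02) or without small RNA and mitochondrial genes (0.05). Bmpr1b had the largest decrease, at 3.88, 2.18 and 2.79 TPM in Merkel, 12.8, 6.11 and 11.7 in first and 13.9, 8.04 and 12.3 in second basal libraries. The groups did not overlap, and the basal mean was 3.66 times the Merkel mean (log2 fold change -1.56 ± 0.24, adjusted p = 0.0011). Bmpr1a, the most abundant receptor over all libraries and the other main type I receptor for BMP2 and BMP4, was at 42.2, 32.7 and 39.2 TPM in Merkel, 40.3, 36.0 and 38.2 in first and 54.7, 46.2 and 48.0 in second basal libraries. These ranges overlapped (-0.19 ± 0.13, adjusted p = 0.27).

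Tgfbr2, the type II receptor required for TGF-β ligands, was at 9.45, 7.96 and 11.7 TPM in Merkel libraries. It was at 33.6, 27.4 and 35.4 TPM in first and 24.02, 24.3 and 26.9 in second basal libraries. Merkel values lay well below both basal groups, at a log2 fold change of -1.47 ± 0.15 (adjusted p = 0.00011) and a mean 2.95 times as high in basal keratinocytes. Tgfbr3, the co-receptor betaglycan that presents TGF-β2, was at 6.93, 4.58 and 5.57 TPM in Merkel, 13.6, 10.4 and 13.9 in first and 16.9, 14.0 and 15.2 in second basal libraries. Its groups were also apart (-1.17 ± 0.16, adjusted p = 0.00058), although with median-ratio scaling it missed the fold limit by less than the rounding of the value. Bmpr2, the BMP type II receptor, was at 17.4 ± 2.06 against 24.8 ± 4.14 TPM (-0.48 ± 0.15, adjusted p = 0.032). Tgfbr1, whose basal libraries split in a way described further on, had a log2 fold change of -0.65 ± 0.26 (adjusted p = 0.08). With the sample number as a replicate block limma's adjusted p for Tgfbr1 was 0.00087. The activin receptors Acvr1b, Acvr2a and Acvr2b and the BMP type I receptor Acvr1 had adjusted p-values from 0.11 to 0.93 without the block. With the block they were 0.13, 0.033, 0.13 and 0.91 in the same order. Acvr2a overlaps Orc4 on the opposite strand, at 23.7 TPM in Merkel and 30.2 in basal libraries.

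None of the tested SMADs reached the fold limit, and Smad5 and Smad6 passed the adjusted p. Smad4, the common partner and the most abundant of them, was at 38.7, 27.2 and 32.9 TPM in Merkel, 38.8, 33.8 and 35.7 in first and 50.3, 43.1 and 41.4 in second basal libraries, with overlapping ranges (-0.29 ± 0.15, adjusted p = 0.14). Smad1 was at 21.5 ± 2.75 against 21.4 ± 1.43 TPM (0.01 ± 0.13, adjusted p = 0.96) and Smad5 at 21.9 ± 3.80 against 30.2 ± 2.91 TPM (-0.44 ± 0.15, adjusted p = 0.042). Smad5 overlaps the RNA gene Gm27271 on the same strand, at a mean of 0 TPM in Merkel and 3.87 in basal libraries. The part of this overlap in the Smad5 values was not tested. Smad2 and Smad3 had log2 fold changes of -0.15 ± 0.15 and -0.17 ± 0.25. Their adjusted p-values were 0.47 and 0.63. Smad6, an inhibitor of BMP signalling, was low in both groups, at 1.94 to 2.89 TPM in Merkel and 0.73 to 2.16 in basal libraries (0.65 ± 0.18, adjusted p = 0.019). Smad7, the other inhibitory SMAD, was at 5.53 ± 1.11 against 4.82 ± 1.32 TPM (0.19 ± 0.20, adjusted p = 0.47). Smad9 stayed at or below 0.28 TPM in every library and was not tested.

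Id genes encode proteins that bind basic helix-loop-helix transcription factors and keep them from DNA. All 4 had a log2 fold change above 0, and none reached the limit against both basal groups. Id3, the most abundant over all libraries, was at 67.8, 35.2 and 53.8 TPM in Merkel, 33.4, 28.9 and 40.9 in first and 56.5, 51.8 and 64.2 in second basal libraries. Its ranges overlapped (0.19 ± 0.22, adjusted p = 0.54), and against second basal libraries alone the sign turned (-0.18). Id1 was at 47.1 ± 6.83 against 32.1 ± 7.70 TPM (0.57 ± 0.18, adjusted p = 0.032) and Id2 at 23.8 ± 2.69 against 16.3 ± 1.68 TPM (0.58 ± 0.13, adjusted p = 0.0068). Id4 was at 9.35 ± 0.750 against 5.23 ± 1.02 TPM (0.75 ± 0.15, adjusted p = 0.004), the only Id gene with every Merkel library above every basal library.

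**Figure D3:**
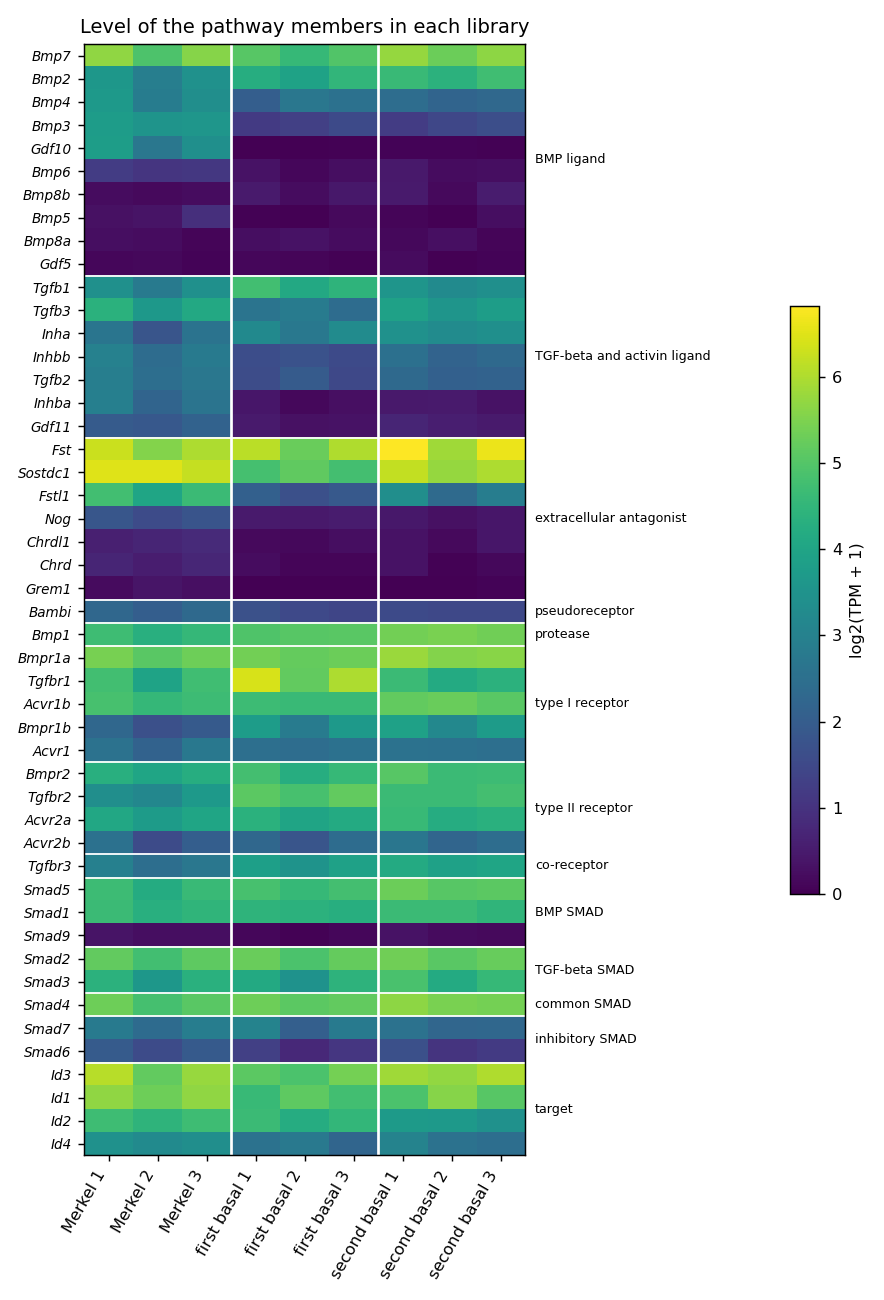
Heat map of log2(TPM + 1) for the 48 members (rows, grouped by role and ordered by mean level) in the 9 libraries (columns; white lines separate Merkel, first basal and second basal). Gdf10, Inhba and Bmp3 are brighter in the 3 Merkel columns than in the 6 basal ones, while Fst, Bmp7, Bmpr1a and Smad4 are bright in all 9.

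Markers of other cells moved with these groups. Of 14 genes on a list for dermal fibroblasts and the dermal papilla, 12 were tested and 10 were higher in Merkel cells, among them Col3a1, Corin and Pdgfra. Without its most abundant member, Vim, the summed list was at 202 to 309 TPM in Merkel, 37.6 to 106 in first and 104 to 256 in second basal libraries. Vim itself was at 107 to 175 TPM in Merkel, 350 to 801 in first and 78.4 to 160 in second basal libraries. Pdgfra was at 5.15 to 7.14 TPM in Merkel and 0.01 to 0.17 in basal libraries. Bmp4, Nog, Fstl1 and Grem1 are also known from dermal cells, and the part of such cells in the higher values of ligands and antagonists was not tested. Fewer cells of a type and less RNA per cell cannot be told apart in such bulk libraries. Of 8 melanocyte genes 6 were higher in Merkel cells (summed 162 to 230 TPM against 17.1 to 168), of 13 hair follicle genes, with 11 tested, 2 were (2290 to 2588 against 927 to 2372), and of 5 Schwann cell genes, with 3 tested, 1 was (36.9 to 48.7 against 32.3 to 46.3). The 5 endothelial genes summed to 1.67 to 3.80 TPM in Merkel and 0.45 to 1.56 in basal libraries, and the 1 gene tested was not called. The 6 macrophage and Langerhans cell genes went the other way, with 3 (Adgre1, Csf1r and Ptprc) called lower in Merkel cells, all 6 below 0 and a median log2 fold change of -1.44. The summed list was at 48.0 to 245 TPM in second basal and 55.7 to 141 in Merkel libraries. Against second basal libraries alone Tgfbr2 and Tgfbi were called lower in Merkel cells, at -1.30 and -1.35. The part of macrophages and Langerhans cells in the lower values of Tgfbr2, Tgfb1 and Tgfbi was not tested. The 10 suprabasal keratinocyte genes summed to 7198 to 11790 TPM in Merkel and 7060 to 11440 in basal libraries, and limma called 0 of them, 0 also without adjustment of the p. No list had a marker at 0 in every library.

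The first and second basal libraries were compared because their mean can hide a difference between them. Tgfbr1 and Tgfb1 were lower and Tgfb3 and Sostdc1 higher in second than in first libraries, and the other 31 of 35 tested members were not called. The 2 higher members were 5.71% of those tested, where 0.675% of all 13477 tested genes were called higher, and the 2 lower ones were 5.71%, where 3.67% were. In either direction it was 11.4% of members and 4.35% of all tested genes. Counted by limma's adjusted p alone, 5 members (14.3%) were higher and 3 (8.57%) lower, where 3.37% and 4.82% of all tested genes were. Every second library was above every first library in 15 members (42.9%) and below in 4 (11.4%), where the shares over all tested genes were 17.3% and 10.1%. Tgfbr1, the type I receptor for TGF-β, was at 83.7, 35.3 and 62.2 TPM in first basal, 24.3, 17.2 and 20.0 in second basal and 26.2, 14.6 and 25.7 in Merkel libraries. First libraries stood above both other groups, which overlapped each other. The log2 fold change of second minus first libraries was -1.44 ± 0.30 (limma, n = 3 against 3, adjusted p = 0.029). With the sample number as a replicate block limma's adjusted p was 0.0081. The fits that leave out a replicate or the filter are without the block. The adjusted p lost the threshold without any 1 of the first basal replicates 1 and 3 (0.062 and 0.11) or the second basal replicates 1, 2 and 3 (0.064, 0.082 and 0.12), and with no filter on low values (0.079).

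Tgfb1 was at 26.3, 16.5 and 20.7 TPM in first basal, 10.9, 8.67 and 9.63 in second basal and 9.81, 5.89 and 9.68 in Merkel libraries. Here too the first libraries were above all others (second minus first -1.03 ± 0.18, adjusted p = 0.014). The call was lost without first basal replicate 1 (-0.87) or 3 (adjusted p = 0.062), and without second basal replicate 2 (-0.96) or 3 (adjusted p = 0.075). Set against Merkel cells, which both comparisons share, Tgfbr1 had a log2 fold change of -1.37 (adjusted p = 0.01) from first and 0.08 (adjusted p = 0.82) from second basal libraries. Tgfb1 had -1.23 (adjusted p = 0.0029) and -0.21 (adjusted p = 0.43). Tgfbr2 was called lower in Merkel cells against either, at -1.64 and -1.30.

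Tgfb3 was at 5.22, 6.11 and 4.30 TPM in first and 14.0, 10.8 and 13.0 in second basal libraries, beside 19.5, 11.5 and 16.5 in Merkel libraries. The 2 basal groups did not overlap (1.13 ± 0.15, adjusted p = 0.0064), and second basal and Merkel libraries did. For Sostdc1, with the values given above, the second libraries were between the first and the Merkel libraries (second minus first 1.06 ± 0.15, adjusted p = 0.0079). The Sostdc1 call was lost without second basal replicate 1 (0.95) or first basal replicate 3, where it missed the fold limit by less than the rounding of the value. Against first basal libraries alone Merkel cells were higher by a log2 fold change of 1.42 for Tgfb3 and 1.49 for Sostdc1, and against second libraries alone the values were 0.29 (adjusted p = 0.27) and 0.43 (adjusted p = 0.046). Inhbb and Tgfb2 were likewise called higher in Merkel cells against first libraries alone, at 1.11 and 1.01. Id2 was the reverse: lower in second than in first libraries without reaching the fold limit (-0.85 ± 0.14, adjusted p = 0.013), it was called higher in Merkel cells against second libraries alone (1.01). Id3, Inhbb and Acvr1b passed the adjusted p in second against first libraries at 0.73, 0.72 and 0.53 (adjusted p = 0.026, 0.023 and 0.013).

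**Figure D4:**
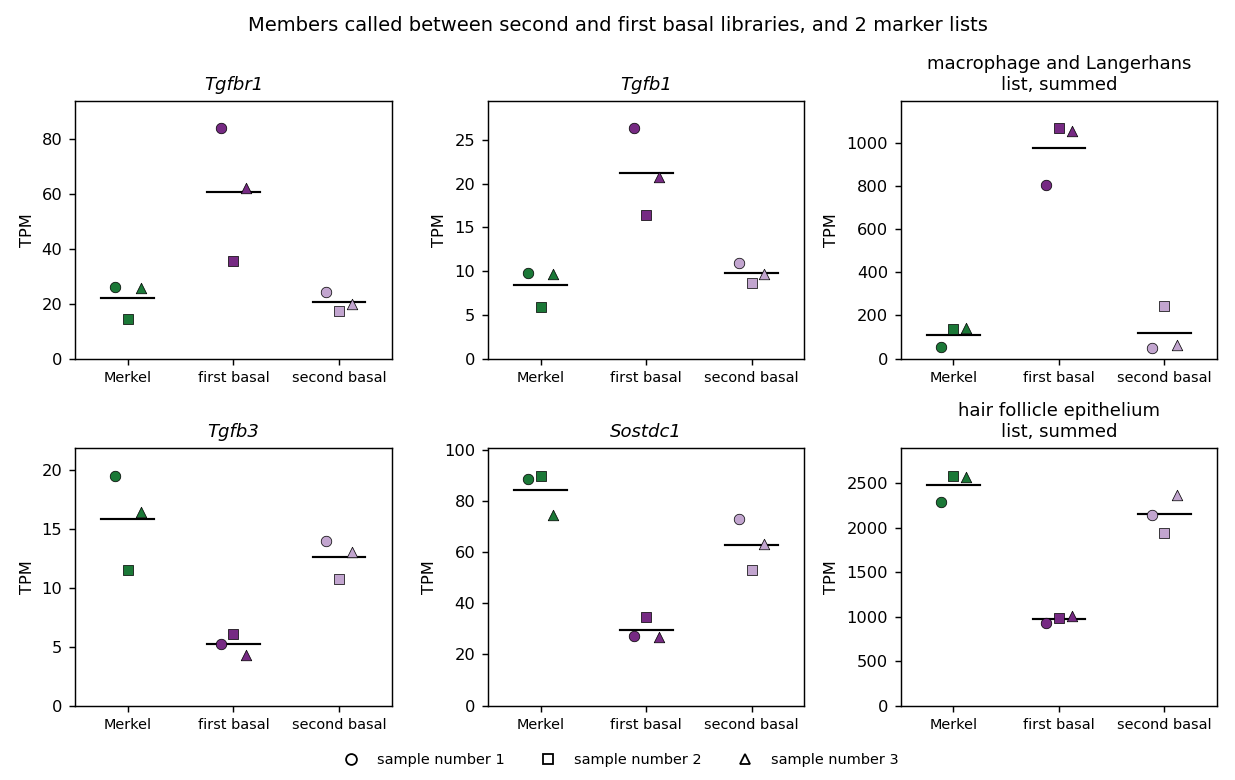
TPM (y axes from 0) in each library, by group and sample number, of the 4 members called between second and first basal libraries and of 2 summed marker lists; bars are group means. Tgfbr1, Tgfb1 and the macrophage and Langerhans list are highest in the 3 first basal libraries, and Tgfb3, Sostdc1 and the hair follicle list are lowest there.

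Immune and follicle markers moved with the same split. A list of 6 macrophage and Langerhans cell genes summed to 805 to 1067 TPM in first basal, 48.0 to 245 in second basal and 55.7 to 141 in Merkel libraries, and 4 of the 6 were lower in second than in first libraries. The most abundant member, Cd74, was at 310, 885 and 683 TPM in first basal replicates 1 to 3. The leukocyte marker Ptprc was at 56.9, 21.5 and 39.6 TPM there and the macrophage receptor gene Csf1r at 162, 69.2 and 121. Of the 13 hair follicle epithelium genes, with 11 tested, 6 were higher in second than in first libraries, with a summed level of 1936 to 2372 TPM against 927 to 1012. Of the 8 melanocyte genes 8 were higher (116 to 168 against 17.1 to 37.5 TPM). EGFP, the reporter transcript, was at 13.4 to 18.3 TPM in second and 1.73 to 3.72 in first basal libraries, beside 178 to 247 in Merkel libraries. The part of these cells in the differences of Tgfbr1, Tgfb1, Tgfb3, Sostdc1 and Id2 was not tested.

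A further 75 genes of the BMP, activin, nodal and TGF-β pathways were counted, and 46 were tested. Higher in Merkel cells were 5 and lower 4, where 6.79% and 5.27% of all tested genes were, and the median log2 fold change was -0.32. By limma's adjusted p alone 9 of the 46 were higher and 21 lower, where 13.2% and 28.5% of all tested genes were. The log2 fold change was above 0 in 14 and below 0 in 32. The latency protein Ltbp1, which holds TGF-β in the matrix, was at 25.9, 22.8 and 26.9 TPM in Merkel libraries, while basal libraries held 2.60 to 6.57 (2.23 ± 0.13, adjusted p = 3.1e-06). The transcription factor gene Hey1 was at 5.04, 3.07 and 4.24 TPM against 0.05 to 0.55 (2.12 ± 0.17, adjusted p = 2.3e-05). In both genes every Merkel library was above every basal library, and Hey1 could be tested only through its Merkel values. Ccn2 (1.19) and Tgfb1i1 (1.11) were also higher, and against second basal libraries alone neither was called (0.39 and 0.94).

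Lower in Merkel cells was first Tgfbi, a matrix protein gene named for its induction by TGF-β, at 59.8, 43.5 and 53.2 TPM in Merkel, 399, 172 and 292 in first and 138, 141 and 121 in second basal libraries (-1.86 ± 0.18, adjusted p = 7e-05). Htra1, a secreted protease, was at 43.3 ± 8.14 against 124 ± 19.4 TPM (-1.49 ± 0.17, adjusted p = 0.00018). Nbl1, a BMP antagonist of the DAN family, was at 20.0 ± 0.718 against 44.7 ± 5.82 TPM (-1.10 ± 0.13, adjusted p = 0.00021). For all 3 every Merkel library lay below every basal library. Ltbp4, a relative of Ltbp1, was at 20.3 ± 2.84 against 42.0 ± 1.62 TPM, so that the 2 latency proteins differed in opposite directions (-1.02 ± 0.13, adjusted p = 0.00036, for Ltbp4). Against second basal libraries alone Nbl1 (-0.97) and Ltbp4 (-0.99) fell short of the fold limit.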

How the data were processed

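Total RNA from cells sorted out of P0 Sox2-GFP mouse epidermis was sequenced as 3 Merkel and 6 basal keratinocyte libraries. Per the submitters' processing notes the reads passed through Trimmomatic, STAR and RSEM on mm10. No version, annotation or strand setting is given in the sources used here. The authors deposited gene-level TPM, which keeps no read depth, so no counting interval is given. Symbols and coordinates come from GENCODE M21 with identifier versions dropped: 49326 of 49671 Ensembl identifiers matched. Of the 48 members, 18 overlap another gene of the table, but of the 40 tested 4 overlap a gene at 1 TPM or more.

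On the scale log2(TPM + 1), first and second basal libraries with the same number were averaged, and the resulting 3 Merkel and 3 basal values were compared with limma 3.58.1 (R 4.3.3, variance trend, two-sided, Benjamini-Hochberg over all tested genes). Levels are means ± SD over 3 values. Second and first basal libraries were tested in the same way. The members and lists were chosen with earlier results of these data known. All members may be named. Those called and the most abundant of each role are given in every library, and of the other pathway genes the 3 with the smallest adjusted p in each direction. Of these, 1 is not reported here. Same-numbered samples deviated together across genes (r = 0.385, 0.357 and 0.202 between Merkel and basal, 0.505, 0.54 and 0.414 between first and second basal libraries), so the numbers pair the samples. Unless a block is named, the SEs and adjusted p-values in the Results come from fits without this pairing. The fits were also run on simulated data, and the outcome is not given here. Tables and plots used Python 3.11.15, pandas 2.3.3 and matplotlib 3.10.9. Alternatives in scaling, filter, pseudocount, basal libraries and replicates were also fitted.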

Additional observations from a re-analysis of the deposited data

How the results depend on the processing

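With the sample number as a replicate block, 6 members were higher and 4 lower in Merkel cells. In second basal libraries 2 were higher and 2 lower, and no member's call changed. Adjusted p-values moved in both directions. In second against first libraries limma's value fell from 0.051 to 0.0059 for Bmp7 and from 0.3 to 0.0064 for Fst. It rose from 0.0064 to 0.011 for Tgfb3. In Merkel cells against basal keratinocytes it fell from 0.08 to 0.00087 for Tgfbr1. The counts by adjusted p alone given above are without the block and depend on that choice. Over all genes the block gave 960 higher and 759 lower in Merkel cells, beside 938 and 729. Median-ratio scaling left 442 genes lower, a pseudocount of 0.1 gave 1254 lower, and a filter at 5 TPM, which tests fewer genes, gave 486 higher and 449 lower. Members called higher in Merkel cells numbered 3 with a filter at 5 TPM and 10 against first basal libraries alone. Members called lower numbered 2 with median-ratio scaling. Of the other pathway genes, 2 were higher with a filter at 5 TPM and 3 against second basal libraries alone, and 2 were lower with median-ratio scaling or quantile normalization. In second against first libraries over all genes, 147 were higher with a pseudocount of 0.1, and 58 higher and 253 lower with a filter at 5 TPM. Leaving out 1 replicate gave 59 to 120 higher, the lowest without second basal replicate 3, and 273 to 574 lower, with 273 without second basal replicate 3 and 323 without first basal replicate 3. For members it gave 1 to 3 higher and 0 to 2 lower, and with no filter 1 was lower.

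Some members changed sign, Tgfbr1 (-0.65 against both basal groups) among them. With median-ratio scaling Acvr1, Smad2, Smad3 and Fst came to 0.13, 0.04, 0.02 and 0.02, and with quantile normalization Acvr1, Smad2 and Smad3 to 0.02, 0.03 and 0.01. Acvr1 was at 0.05 without small RNA and mitochondrial genes. Against first basal libraries alone Acvr1b, Smad3 and Fst were at 0.04, 0.09 and 0.15. Against second libraries alone Bmp7, Tgfbr1, Smad1 and Id3 were at -0.16, 0.08, -0.10 and -0.18. Leaving out 1 replicate gave -0.15 to 0.15 for Acvr1, -0.08 to 0.09 for Smad1, -0.39 to 0.08 for Smad3, -0.45 to 0.02 for Fst and -0.02 to 0.44 for Id3. The cause was not tested. With 3 values a group and an unknown depth, levels under about 1 TPM are the least precise.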
